A study of Homo sapiens with 3 samples.

Results

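The genes described here are the 5 members of the Ikaros zinc finger family, IKZF1 to IKZF5, and ZBTB16 (also called PLZF), 6 of the 57773 gene IDs in the deposited count table. They were chosen by name, with their values in these libraries already known, so those values are given as a description and carry no test. All 6 passed the filter on low counts, which kept 20382 genes.

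The study silenced ARID1B, which helps the BAF chromatin remodeller bind DNA, in NB4, a human acute promyelocytic leukaemia cell line that carries the PML-RARA fusion. Polyadenylated RNA was sequenced from 3 libraries, 1 with the control hairpin (con-sh, a short hairpin RNA with no target) and 1 each with hairpins 2 and 3 against ARID1B (ARID1B-sh2 and ARID1B-sh3). All 3 come from this single cell line, grown in serum-containing medium, and the labels do not say whether they stem from separate infections or cultures. The control is therefore a single library, and the spread between the knockdown libraries is the difference between hairpins.

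Ikaros proteins bind DNA through zinc fingers near the N-terminus and pair with each other through fingers at the C-terminus. They recruit the NuRD and SIN3 repressor complexes and set lymphoid cell fate, and Ikaros itself also acts in granulocyte, monocyte and basophil development. ZBTB16 is a BTB-domain zinc finger repressor of blood progenitors and innate-like T cells, it represses through the NCOR complex, it is a classical glucocorticoid-induced gene, and it is fused to RARA in a rare variant of acute promyelocytic leukaemia.

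Total counts lay between 59997475 and 62954803 per library, and a count of 0 allows up to 3 counts, or 0.0481 to 0.0499 CPM (counts scaled to library size with TMM factors). ARID1B itself went from 5268 control counts to 2209 (hairpin 2) and 2234 (hairpin 3), or 43.3% and 42.2% of the control level (log2 fold change -1.23 ± 0.125 SE, edgeR quasi-likelihood test, adjusted p = 1.4e-05, from 4.9e-10 to 0.465 over the alternatives). When genes with low counts were kept in the fit, 0 genes passed in edgeR, ARID1B included (3218 at an unadjusted p under 0.05), and this holds for each call below. The promyelocyte marker MPO stood at 10994, 13903 and 11897 CPM (control, hairpin 2, hairpin 3), and of the 9 listed promyelocyte markers ELANE alone was near 0, with at most 10 counts in any library. In edgeR 1 of the 9 rose, the protease PRTN3 (54.2, 248 and 219 CPM, log2 fold change 2.11 ± 0.151 SE, adjusted p = 7.5e-07), and 1 fell, the protease CTSG (110, 27.8 and 35 CPM, -1.81 ± 0.141, adjusted p = 1.2e-06), while MPO did not pass (0.23 ± 0.295). Over all genes tested, 5.49% were called higher and 3.21% lower.

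Promoter sequences are shown for IKZF2, which stood furthest from the control, and for a start site of IKZF1, the family member with most mRNA. They are the 250 bases before the start site, 5′ to 3′, from RefSeq (GRCh38.p14), whose table matched 4 of the 6 genes, with 10 start sites in all. IKZF2 has start sites on the minus strand of chromosome 2, with windows at chr2:213152457-213152706 and chr2:213150438-213150687. The IKZF1 window lies on the plus strand of chromosome 7, at chr7:50318798-50319047, and ends at an annotated start site downstream of the first one. It had a GC content of 32.8% and 0 CG pairs, and whether it acts as a promoter was not tested. Of the 10 windows it alone holds AGATAA, so it is not typical of IKZF1 or of the matched genes. The mRNA level is the reason for showing this gene, not for showing this start site. The windows of the other IKZF1 starts, that of the first start included, held no AGATAA and are not shown. The window of the first start held TGGGAA and had a GC content of 71.2%. Capitals mark the GATA factor motif AGATAA on either strand.
IKZF2, first start: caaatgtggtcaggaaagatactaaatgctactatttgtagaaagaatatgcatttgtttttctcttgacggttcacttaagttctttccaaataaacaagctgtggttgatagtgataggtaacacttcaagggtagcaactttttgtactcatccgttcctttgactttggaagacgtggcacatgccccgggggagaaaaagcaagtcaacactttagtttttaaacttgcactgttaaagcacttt
IKZF2, second start: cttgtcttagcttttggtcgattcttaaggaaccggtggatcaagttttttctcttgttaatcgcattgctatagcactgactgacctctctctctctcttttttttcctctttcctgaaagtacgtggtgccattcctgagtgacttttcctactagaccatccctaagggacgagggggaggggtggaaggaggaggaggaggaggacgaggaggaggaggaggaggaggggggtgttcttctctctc
IKZF1, downstream start: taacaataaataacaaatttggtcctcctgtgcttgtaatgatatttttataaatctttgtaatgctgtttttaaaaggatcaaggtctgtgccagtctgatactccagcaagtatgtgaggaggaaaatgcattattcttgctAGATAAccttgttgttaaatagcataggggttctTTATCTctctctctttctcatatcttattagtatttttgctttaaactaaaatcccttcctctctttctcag

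The windows were searched on both strands for the core letters of Ikaros binding sites (TGGGAA), for AGATAA and for the AP-1 motif (TGACTCA), none of which overlap each other here. Neither IKZF2 window held any of the 3. Among the 10 windows of the matched genes, TGGGAA occurred in 1, the window of the first IKZF1 start, against 20.8% of all 35116 windows of this length. AGATAA occurred in 1, the IKZF1 window shown, which holds 2 copies, against 9.17% of all windows, and TGACTCA in 0, against 4.2%. These are matches of letters only. The IKZF2 windows had a GC content of 38% and 50%, below the median of 58% over all windows, and the first IKZF1 start had 71.2%.

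IKZF2 and ZBTB16 stood more than 2-fold above the control under both hairpins, IKZF1 stood slightly above it, and IKZF3, IKZF4 and IKZF5 stood at or slightly below it. The count of members at least 2-fold higher under both hairpins was thus 2 of 6, and 0 were as far below. Over all genes tested 3% were at least 2-fold higher and 1.73% at least 2-fold lower under both hairpins. The choice of the genes used these values, so nothing is read from the comparison of the shares.

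**Figure D1:**
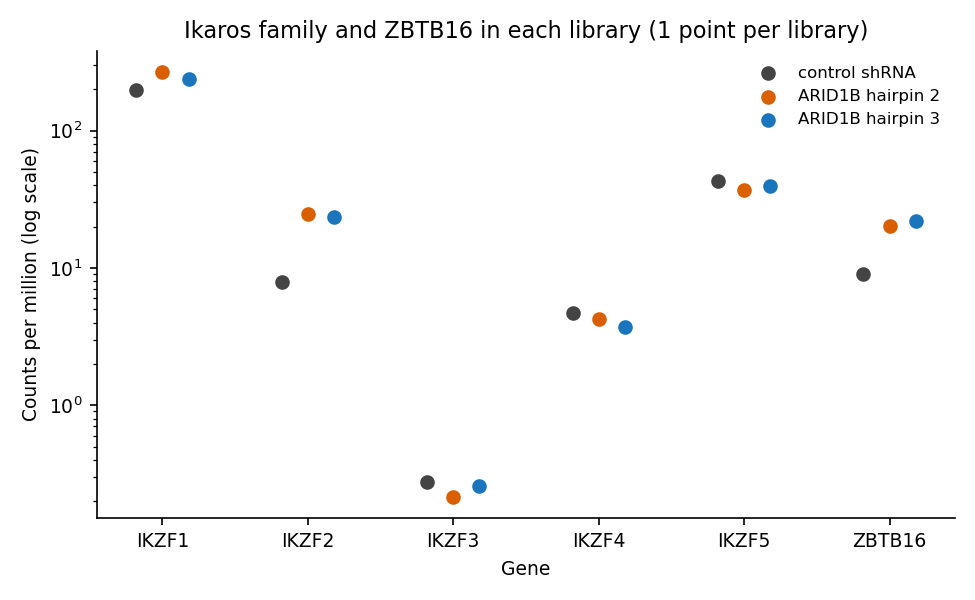
CPM (log scale) of the 6 genes in the control library and under ARID1B hairpins 2 and 3, 1 point per library. IKZF2 (7.84 in the control, 24.5 and 23.3 under the hairpins) and ZBTB16 (8.99, 20.1 and 21.8) have both hairpin points well above the control, while IKZF3 has the lowest points of the 6 genes.

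IKZF2 encodes Helios, the family member known from regulatory T cells and from early blood progenitors. Its control library held 487 counts, that of hairpin 2 held 1475 and that of hairpin 3 held 1451, which is 7.84, 24.5 and 23.3 CPM. Both knockdown libraries lay far above the control and close to each other. The ratio to the control was 3.13 under hairpin 2 (exact 95% counting interval 2.82 to 3.47) and 2.97 under hairpin 3 (2.68 to 3.3), and the ratio between the hairpins, 0.949 (0.882 to 1.02), had an interval that spans 1. On the log2 scale (prior count of 2) the mean difference from the control was 1.60 with an SD of 0.053 between the hairpins (n = 2). Reads carry no molecular identifiers, so counting intervals cover counting error only.

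ZBTB16 had 558 counts with the control hairpin, 1210 with hairpin 2 and 1359 with hairpin 3, or 8.99, 20.1 and 21.8 CPM. Again both hairpin libraries were above the control, here with the higher value under hairpin 3. The ratios were 2.24 (2.02 to 2.48) and 2.43 (2.2 to 2.68), and the mean log2 difference was 1.22 (SD 0.082, n = 2). In bulk RNA, a larger number of cells with the transcript and more transcript per cell cannot be told apart, for this gene and for the others.

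IKZF1 encodes Ikaros, the founding member of the family. Its counts were 12269 with the control hairpin, 16038 with hairpin 2 and 14717 with hairpin 3, and its CPM values were 198, 267 and 236. Both hairpin libraries lay above the control, by ratios of 1.35 (1.32 to 1.38) and 1.19 (1.17 to 1.22). The hairpins differed by a ratio of 0.885 (hairpin 3 over hairpin 2, 0.866 to 0.905), beyond counting error. On the log2 scale the mean difference was 0.34 with an SD of 0.12, and the hairpins stood 0.18 apart. Over the 14977 genes with a mean of at least 1 CPM, the SD of the log2 difference between the hairpins was 0.26, larger than the gap at IKZF1. That SD includes genes with far fewer counts, and none was taken over genes of like level.

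IKZF5 encodes Pegasus, the most divergent member, and IKZF4 encodes Eos, a partner of FOXP3 in regulatory T cells. IKZF5 had 2647, 2229 and 2472 counts (control, hairpin 2 and hairpin 3) and IKZF4 had 292, 257 and 231. Both were lower under each hairpin than in the control: the ratios of IKZF5 were 0.87 (0.822 to 0.92) and 0.93 (0.88 to 0.983), and those of IKZF4 were 0.909 (0.766 to 1.08) and 0.788 (0.66 to 0.94). For IKZF4 under hairpin 2 the counting interval includes 1. IKZF3, which encodes the B cell factor Aiolos, had 17, 13 and 16 counts. Its ratios were 0.79 (0.353 to 1.73) and 0.937 (0.443 to 1.97), and at this depth no difference was detectable.

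**Figure D2:**
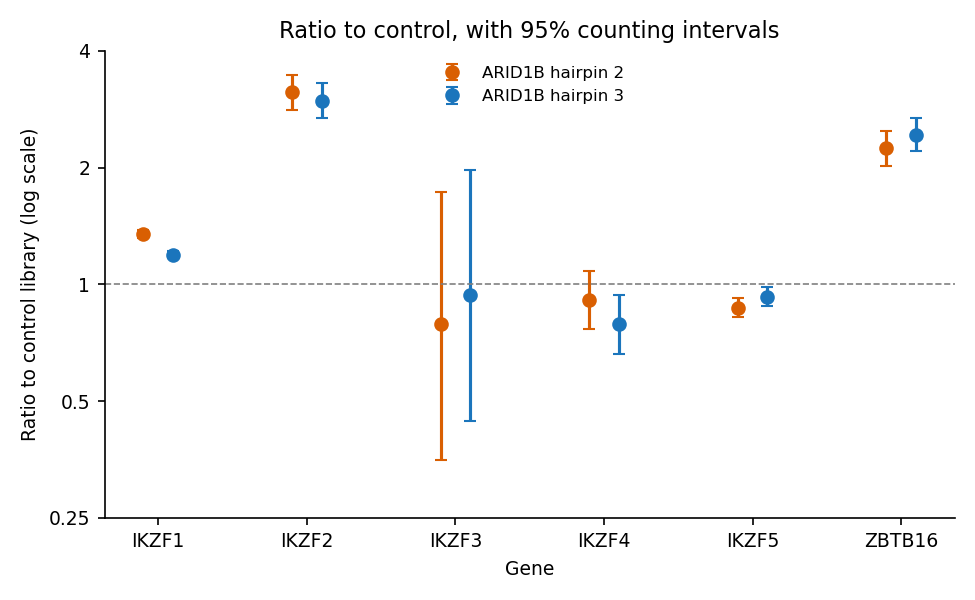
Ratio of each hairpin library to the control library (log scale) for the 6 genes, with exact 95% counting intervals that cover counting error only; the dashed line marks equality. IKZF2 lies at 3.13 and 2.97, ZBTB16 at 2.24 and 2.43, IKZF1 at 1.35 and 1.19, and the wide intervals of IKZF3 rest on 17 counts or fewer.

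Levels of different genes were compared as CPM per kb, using the union of the exons of each gene in GENCODE release 29. In the control library the order was IKZF1 (18.1), IKZF5 (8.64), ZBTB16 (1.41), IKZF4 (0.691), IKZF2 (0.641) and IKZF3 (0.0274). IKZF4 and IKZF2 could not be separated there, since their ratio was 1.08 with a counting interval of 0.929 to 1.25. In the knockdown libraries IKZF2 passed IKZF4: its mean level was 1.95 ± 0.0723 CPM per kb (SD, n = 2) against 0.586 ± 0.059, and the ratio of IKZF4 to IKZF2 was 0.313 (0.273 to 0.358) and 0.286 (0.248 to 0.329). The rest of the order was the same in each library, with ZBTB16 at 3.29 ± 0.186, IKZF5 at 7.77 ± 0.371 and IKZF1 at 23 ± 1.98. With the longest transcript as the length, the order in each library was the same, but IKZF1 stood at 31.4, 42.3 and 37.5 CPM per kb.

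Ikaros therefore made up most of the family's mRNA in each library. Of the summed CPM per kb of the 5 Ikaros genes, IKZF1 took 64.4%, 70.6% and 67.3% (control, hairpin 2, hairpin 3). The share of IKZF2 was 2.28%, 5.8% and 5.92%, and that of IKZF5 was 30.8%, 21.7% and 25%. IKZF1 exceeded IKZF2 by a factor of 28.2 in the control library and of 12.2 and 11.4 under the hairpins, a ratio within a library that does not depend on how libraries are scaled. It exceeded ZBTB16 by a factor of 12.8, 7.73 and 6.31. Counts per gene do not separate isoforms, so the short Ikaros forms that lack DNA-binding fingers are included in these values.

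**Figure D3:**
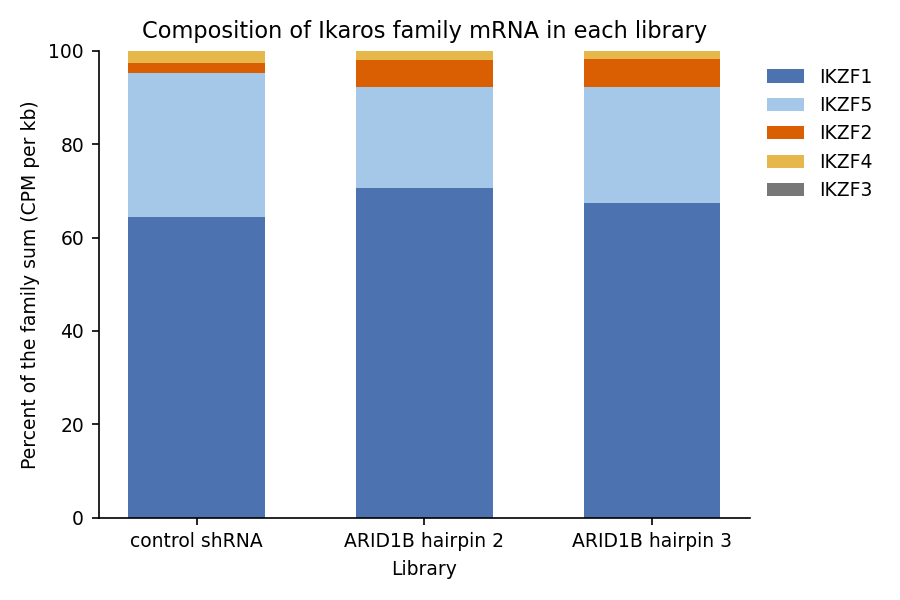
Share of each Ikaros gene in the family's summed CPM per kb, in percent, in the control library and under ARID1B hairpins 2 and 3, 1 bar per library. IKZF1 is the largest part in all 3 bars, the IKZF2 part is 2.28% in the control bar and 5.8% and 5.92% in the hairpin bars, and IKZF3 is too small to see.

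Reads of these genes were little shared with other genes. In GENCODE release 29, 1.01% of the IKZF1 exon length and 1.64% of that of IKZF5 overlap another gene, PSTK in the case of IKZF5, and the other 4 genes share none. The genes next to them on the chromosome were also read, the 2 nearest protein-coding genes on each side by RefSeq order. Of these 24 genes, 13 were tested in edgeR, 0 rose and 1 fell. The background share called in either direction was 8.7% of all genes tested. RAB5B, a GTPase of early endosomes near IKZF4, fell by 0.45 on the log2 scale (SE 0.128, adjusted p = 0.0365, from 0.0179 to 0.47 over the alternatives), and did not pass with DESeq2 or when genes had to reach a mean of 1 CPM.

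Around IKZF2 and ZBTB16 most neighbouring genes were nearly silent. Beside IKZF2, ERBB4 had 1, 4 and 3 counts in the control, hairpin 2 and hairpin 3 libraries and SPAG16 had 2, 2 and 0. Beside ZBTB16, the serotonin receptor genes HTR3B and HTR3A had at most 1 count in any library, and NNMT, a methyltransferase of nicotinamide, had 1, 4 and 2. The nearest tested neighbours were CPS1 for IKZF2 (log2 fold change -0.19 ± 0.251 SE) and C11orf71 for ZBTB16 (0.020 ± 0.294), neither of which passed in edgeR.

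**Figure D4:**
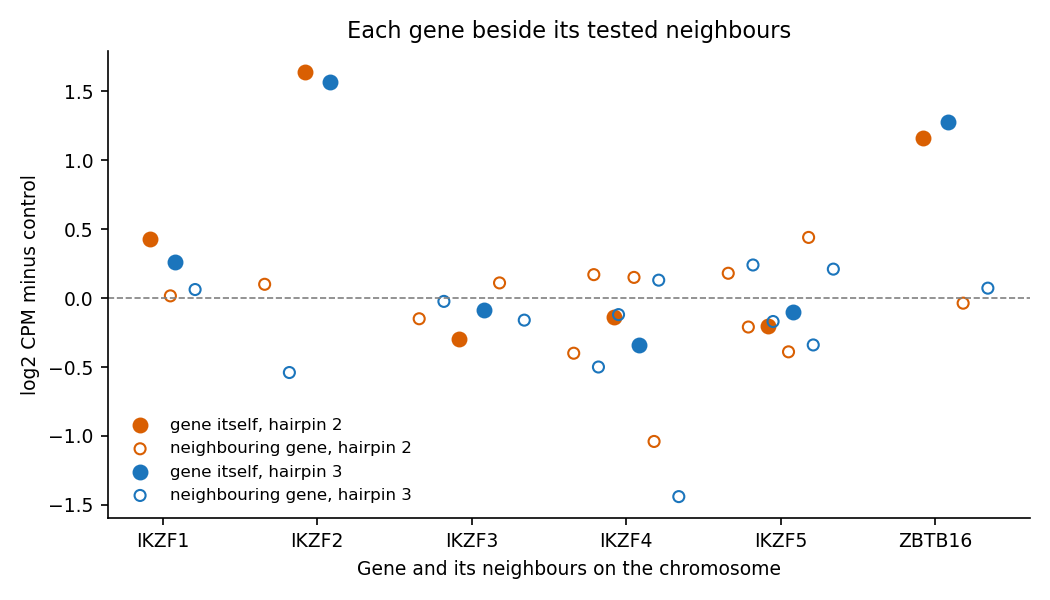
Log2 CPM minus control for each of the 6 genes (filled points) and for its tested neighbours on the chromosome (open points, placed left or right by their side), under hairpins 2 and 3. The filled points of IKZF2 (1.64 and 1.57) and ZBTB16 (1.16 and 1.28) lie above all their open points.

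Genes with the most similar values were sought among the 14977 genes with a mean of at least 1 CPM, by the distance between their log2 differences under hairpins 2 and 3, which rest on 3 libraries and share the control. Closest to IKZF2 were TEX30 (3223, 9655 and 9431 counts, distance 0.0259), TM6SF1 (657, 1928 and 1990, 0.0509) and B3GNT8 (47, 143 and 148, 0.0525). Closest to ZBTB16 were the GTPase gene RAB37 (2069, 4450 and 5089, 0.0191), the sphingosine-1-phosphate receptor S1PR3 (1207, 2542 and 2847, 0.0602) and ENSG00000260400 (45, 96 and 117, 0.0805). Within a distance of 0.1 lay 7 genes for IKZF2 and 4 for ZBTB16. HDGFL3, on the other strand and with at most 17 counts, covers 38.8% of the TM6SF1 exons.

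Genes of the family's protein partners were read next, with no set test. Of 17 NuRD, SIN3 and CtBP genes, through which Ikaros proteins repress, 0 rose and 0 fell in edgeR (0 higher and 2 lower at an unadjusted p under 0.05, and 0 in DESeq2), with a median log2 fold change of -0.045 against -0.012 over all genes tested. Over all genes, 5.49% were called higher and 3.21% lower. The NuRD ATPase CHD4 had 21931, 22936 and 20391 counts (log2 fold change 0.0043 ± 0.147 SE), RBBP4 had -0.045 ± 0.135, CTBP1 0.059 ± 0.133 and MTA1 -0.38 ± 0.135. An overlapping gene covers 46.9% of the CHD4 exons.

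Of 14 tested genes of the cereblon ubiquitin ligase, the enzyme through which lenalidomide-type drugs degrade Ikaros proteins, and of its other drug-induced substrates, 1 rose and 0 fell (2 and 1 at an unadjusted p under 0.05, median 0.058). The shares over all genes tested were 5.49% and 3.21%. The riser was RNF166, with 3138 counts in the control library and 5318 and 3929 under the hairpins (0.58 ± 0.17, edgeR adjusted p = 0.0436, or 0.0161 to 0.503 with other settings). This call was lost with upper quartile factors, DESeq2, robust empirical Bayes and a minimum mean of 1 CPM. The ligase subunits DDB1 (0.042 ± 0.143) and CUL4A (0.10 ± 0.136) and the substrate GSPT1 (-0.11 ± 0.134) did not pass in edgeR.

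Of 13 partners of ZBTB16, 1 rose and 0 fell in edgeR (1 and 1 at an unadjusted p under 0.05, and 1 and 0 in DESeq2), with a median of 0.034. All genes tested gave 5.49% higher and 3.21% lower in edgeR. TBL1X, a subunit of the NCOR complex, rose from 2314 counts to 3775 and 3284 (0.63 ± 0.145, edgeR adjusted p = 0.0109, or 0.00344 to 0.47 with other settings). The corepressor NCOR1 (-0.041 ± 0.138) and the subunit GPS2 (0.17 ± 0.131) did not pass. An overlapping gene covers 44.7% of the GPS2 exons.

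ZBTB16 belongs to a large family of BTB zinc finger factors, and 44 of its 46 listed relatives were tested. Of these, 2 rose and 1 fell, beside 5.49% and 3.21% of all genes tested, and the median was -0.13. ZBTB42 rose from 418 counts to 670 and 658 (0.69 ± 0.181, edgeR adjusted p = 0.0257) and ZBTB46, a factor of classical dendritic cells, from 1116 to 1482 and 1609 (0.49 ± 0.147, adjusted p = 0.0491). ZBTB12 fell from 1579 to 980 and 1137 (-0.56 ± 0.147, adjusted p = 0.0259). All 3 calls were lost with DESeq2 (0.0941, 0.142 and 0.12 in that order, adjusted p) and with a minimum mean of 1 CPM, that of ZBTB46 also with upper quartile factors and robust empirical Bayes, and over the alternatives the p ranged from 0.0159 to 0.47, from 0.0383 to 0.47 and from 0.012 to 0.47. ZBTB44, the most abundant relative that did not pass, had -0.27 ± 0.128.

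**Figure D5:**
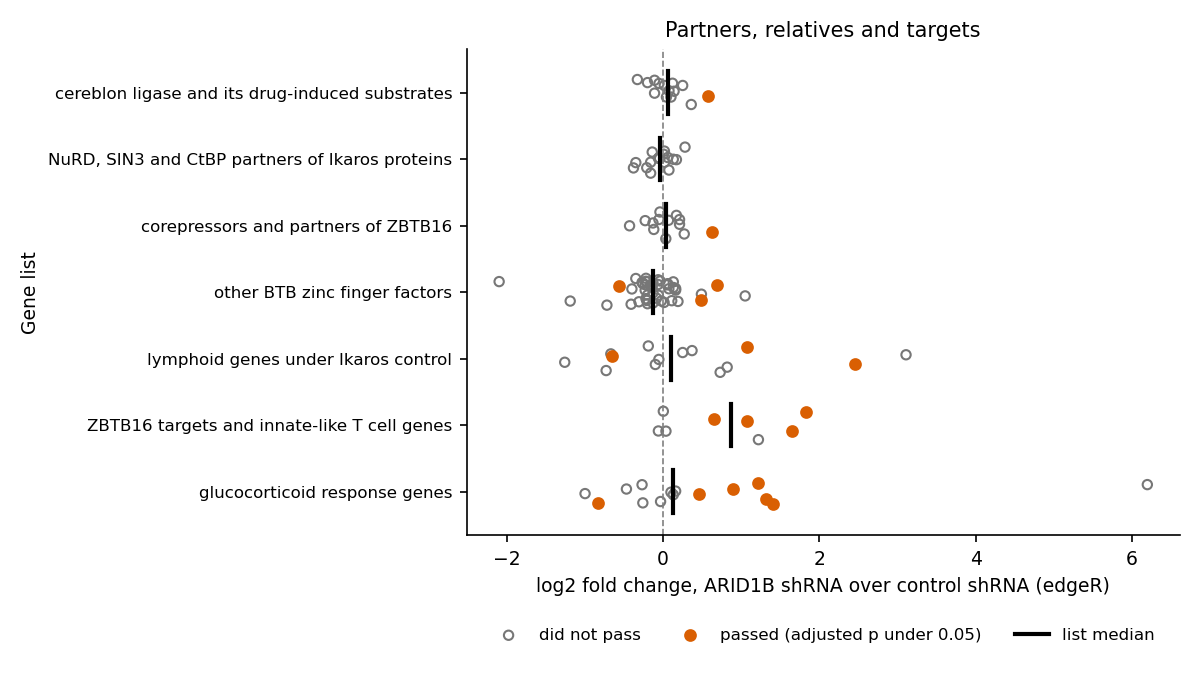
Log2 fold change (edgeR, ARID1B shRNA over control shRNA) of each tested gene in the 7 lists of partners, relatives and targets; filled points passed at an adjusted p under 0.05 and black bars are list medians. The partner lists cluster at 0 (NuRD, SIN3 and CtBP median -0.045). The list of ZBTB16 targets and innate-like T cell genes has a median of 0.87, with 4 of 8 tested genes passing. The open point beyond 6 is CD163, with 0 counts in the control library.

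Of 23 lymphoid genes under Ikaros control, 14 were tested, with a median of 0.10. Among them 2 rose and 1 fell, beside 5.49% and 3.21% of all genes tested. IGLL1, the surrogate light chain of the pre-B cell receptor and a textbook Ikaros target, rose from 43 counts to 217 and 250 (2.46 ± 0.318, edgeR adjusted p = 1.0e-04). HES1, a Notch target, rose from 348 to 647 and 810 (1.08 ± 0.194, adjusted p = 0.00181), and CDK6, a cell cycle kinase, fell from 3360 to 1905 and 2311 (-0.65 ± 0.137, adjusted p = 0.00591). These 3 calls also passed with DESeq2 and with robust empirical Bayes. Another 9 genes of the list were not tested: GATA3 had 0 counts in each library, and VPREB1, DNTT, RAG1, IL7R, DTX1, PTCRA, IL2RA and TBX21 had at most 7 in any library.

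Of 15 genes described as ZBTB16 targets or as part of the innate-like T cell programme, 8 were tested, with a median of 0.87. Among them 4 rose and 0 fell (5 and 0 at an unadjusted p under 0.05, and 3 and 0 in DESeq2). The edgeR shares over all genes tested were 5.49% and 3.21%. ID2, an inhibitor of E proteins, rose from 126 counts to 512 and 371 (1.83 ± 0.267, edgeR adjusted p = 3.0e-04), and DDIT4, an inhibitor of mTORC1 signalling, from 4174 to 8642 and 8758 (1.08 ± 0.134, adjusted p = 7.3e-05). DUSP6, a phosphatase of ERK, rose from 3237 to 5656 and 4364 (0.65 ± 0.162, adjusted p = 0.0181), and the receptor SLAMF6 from 20 to 75 and 49 (1.65 ± 0.483, adjusted p = 0.0442). The DUSP6 call was lost with robust empirical Bayes (adjusted p = 0.0599) and with a minimum mean of 1 CPM (0.0779, from 0.00488 to 0.472 over the alternatives) and the SLAMF6 call with DESeq2 (0.297, from 0.0193 to 0.47), while that CPM minimum left SLAMF6 out. Antisense genes cover 41.2% of the DDIT4 exons and 40.5% of the DUSP6 exons, so both counts are uncertain. The other 4 tested genes, named after their values were seen, did not pass in edgeR. They were CCNA2 (0.036 ± 0.141), IL18R1 (1.22 ± 0.472), EGR2 (0.0024 ± 0.502) and CCR6 (-0.061 ± 0.724). The list mixes ZBTB16 targets with innate-like T cell genes, so its median is not that of targets alone. The innate-like T cell genes KLRB1, SLAMF1 and SH2D1A had at most 8 counts in any library, and SH2D1A had 0 in each.

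Of 15 tested glucocorticoid response genes, read because ZBTB16 is one of the class, 5 rose and 1 fell. All genes tested gave 5.49% higher and 3.21% lower. The list median was 0.13, the same with CD163 at its bound against a control count of 0. The other 9 did not pass in edgeR. The most abundant of them, named after their values were seen, were NR3C1 (0.10 ± 0.135), TSC22D3 (-0.033 ± 0.134), PER1 (-0.27 ± 0.136), ERRFI1 (-0.26 ± 0.182), ZFP36 (0.13 ± 0.208) and DUSP1 (0.16 ± 0.238). CRISPLD2 rose from 77 counts to 205 and 198 (1.41 ± 0.288, edgeR adjusted p = 0.00493), the kinase SGK1 from 86 to 241 and 181 (1.32 ± 0.302, adjusted p = 0.0109), and the metallothioneins MT1X (1.21 ± 0.235, adjusted p = 0.00334) and MT2A (0.89 ± 0.172, adjusted p = 0.00317) also rose. Metallothionein genes are close copies of each other, so the split of their reads is uncertain. The others called, named after their values were seen, were FKBP5 (0.46 ± 0.136, adjusted p = 0.0488, lost with DESeq2 at 0.0672, with robust empirical Bayes at 0.0562, with upper quartile factors at 0.0746 and with a minimum mean of 1 CPM at 0.0885, from 0.0353 to 0.47 over the alternatives) and KLF9, which fell (-0.84 ± 0.17, adjusted p = 0.00471).

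Some markers of other blood cells moved in the same libraries, where 5.49% of all genes tested were called higher and 3.21% lower. Of 15 T, NK and B cell markers, 7 were tested and 2 rose, CD3D (from 292 counts to 595 and 704) and NKG7 (from 1531 to 2734 and 1935), while MS4A1 had 0 counts in each library and CD3E, CD3G, CD2, CD5, CD7, CD8A and KLRD1 had at most 6. The summed level of that list was 133, 188 and 159 CPM in the control, hairpin 2 and hairpin 3 libraries, of which NCAM1, an adhesion molecule that did not pass (0.27 ± 0.134), gave 98.6, 126 and 112 CPM. NKG7 was lost with DESeq2, robust empirical Bayes, upper quartile factors and a minimum mean of 1 CPM (edgeR adjusted p = 0.0442, or 0.0173 to 0.513 with other settings). Of 8 eosinophil, basophil and mast cell markers 6 of 7 tested rose, and their sum was 91.7, 2141 and 1123 CPM, with FCER1A at 0. With robust empirical Bayes 2 of these passed, and EPX, HDC, PRG2 and CLC did not (adjusted p = 0.29, 0.285, 0.0698 and 0.557). CLC, with 3 control counts against 127 and 26 under the hairpins, passed the filter on low counts only through the knockdown libraries. Its call is therefore a description only. Of 8 monocyte and dendritic cell markers 3 of 5 tested rose (sum 32.1, 74.2 and 51.8 CPM), and of 9 erythroid and megakaryocyte markers 2 of 4 tested rose (sum 26.6, 83.6 and 49.2 CPM), with HBA1, PF4 and GP9 among those at 0. With robust empirical Bayes, 1 marker passed in each of these last lists, CD68 and GP1BB. GP1BB was lost with DESeq2 and with a minimum mean of 1 CPM. Other genes on the same strand cover 81.7% of the CD68 exons, 100% of those of GP1BB and 43% of those of PRG2, so these counts are uncertain. Of 4 tested markers of epithelial, fibroblast and packaging cells 0 rose and 2 fell, COL6A1 (lost with DESeq2) and VIM (lost with robust empirical Bayes and a minimum mean of 1 CPM). The sums of these blood cell lists were higher under hairpin 2 than under hairpin 3, and so was IKZF1. Not all called markers followed the sums. CD3D (9.89 and 11.3 CPM under hairpins 2 and 3), CPA3 (2.08 and 2.25) and TPSAB1 (7.1 and 11.1) were higher under hairpin 3. The other called genes of these blood cell lists were higher under hairpin 2. The log2 differences of hairpin 3 from hairpin 2 were -0.18 for IKZF1, -0.076 for IKZF2 and 0.12 for ZBTB16. Each was smaller in size than the SD of 0.26 over genes, which includes genes with far fewer counts. The part of these cell types in the values of the 6 genes was not tested.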

How the data were processed

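The authors deposited raw read counts per Ensembl gene ID, not normalized, for 3 polyA RNA libraries of NB4 cells. STAR, featureCounts, Cufflinks and the build hg19 are named without role or version, per the submitters' processing notes. Annotation and strand use: not given in the sources used here. Symbols came from the reference tables for 52338 IDs. The genes and lists were chosen with earlier results of these data known. Counts were tested in R 4.3.3 with edgeR 4.0.16 (filterByExpr at a minimum count of 10, TMM factors, glmQLFit with legacy = FALSE, glmQLFTest, two-sided, Benjamini-Hochberg adjusted p under 0.05 over 20382 genes). The code was also run on simulated counts in the same design, with the same spread for each gene. That run does not cover spread that varies by gene or by hairpin. The fit had 1 residual degree of freedom, from the difference between the hairpins, which may be technical, and the single control adds no spread. edgeR drew the variance of each gene towards that of all genes (median of 14.8 prior degrees of freedom). The p-values therefore rest mostly on spread shared across genes. SE is the log2 fold change over the square root of F. Ratios carry exact conditional 95% intervals. Lists name up to 4 genes each, called genes first by size, then by mean CPM. DESeq2 1.42.0 and the other alternatives are given in the closing section.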

Additional observations from a re-analysis of the deposited data

How the results depend on the processing

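The log2 differences of the 6 genes kept their sign under each alternative scaling and with a prior count of 0.5. Under these settings they moved by no more than the SD between the hairpins. Their sign also held without either hairpin, where the size of the shift follows from the gap between the hairpins by arithmetic. Without 1 hairpin at a time they ranged from 0.26 to 0.43 for IKZF1, from 1.57 to 1.64 for IKZF2, from -0.30 to -0.083 for IKZF3, from -0.34 to -0.14 for IKZF4, from -0.20 to -0.10 for IKZF5 and from 1.16 to 1.28 for ZBTB16. In the same way the number of tested genes at least 2-fold from the control ranged from 1439 to 1918 (1477 with both hairpins). Calls depended more on the settings. Of 1774 calls (1119 higher, 655 lower) there were 0 in either direction without a filter on low counts, 960 (622 and 338) when genes had to reach a mean of 1 CPM, and 1052 with DESeq2, of which 277 were lower. Higher genes made up 63.1% of the calls, 53.8% under upper quartile scaling and 73.7% in DESeq2. The 7 lists of partners, relatives and targets held 14, 17, 13, 44, 14, 8 and 15 tested genes. Of these genes, 15 were called higher and 3 lower, beside 5.49% and 3.21% of all genes tested. This became 0 and 0 without the filter and 9 higher with the 1 CPM minimum, while library size alone called 5 lower. The cause of these shifts was not tested. No paired analysis was possible because the groups share no replicate number and the control is 1 library.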
